A study of Caenorhabditis elegans with 2 samples.

Results

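The regions described are 3181 peaks of REC-8::GFP on chromosome V of Caenorhabditis elegans, of 18953 peaks in a list that the authors made from the reads of both replicates together. They are the peaks on V whose summit had no annotated tRNA, snoRNA or snRNA gene start within 500 bp, and they are called members here. The chromosome, which is 20924180 bp long in ce11 (the same assembly as WBcel235), was cut into 3 segments of equal length. These are called the left, middle and right segment, and the left and right ones together the outer segments. The left segment held 1071 members, the middle segment 1149 and the right segment 961. The rule used positions only, so the signal, the gene context and the match between replicates were free to differ among the segments.

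Chromatin immunoprecipitation followed by sequencing (ChIP-seq) was done on whole hermaphrodites of strain YL563 that carried REC-8 joined to GFP and FLAG at its C-terminal end. The worms were young adults, grown for 48 hours after release from starvation as L1 larvae. Both libraries belonged to 1 group of 2 biological replicates, and the chromatin was sheared by sonication and pulled down with an antibody against GFP, although a further label names the antibody rec-8. The labels state neither the promoter of the tagged gene nor the number of animals in a library. No control library was analysed here, so there is no comparison between groups of samples. A signal from whole worms mixes the germ line with all somatic tissues, and fewer cells with a bound site and less binding per cell cannot be told apart.

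REC-8 is a kleisin, the subunit that closes the cohesin ring, and it holds sister chromatids together during meiosis in the germ line. Cohesin can be loaded at active gene starts in several organisms and can slide along DNA from there. Worm autosomes have a gene-dense centre with few meiotic crossovers, flanked by arms with more repeats, more crossovers and large families of recently duplicated genes. On V the arms are known for clusters of chemoreceptor genes, which encode receptors that sensory neurons use to smell and taste.

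The 7 stretches below, each the summit base with 50 bases to either side, show what the strongest sites look like. They are the member of highest signal at a protein-coding start and away from any start in each segment, and the strongest in a chemoreceptor-rich stretch. A member was passed over where the printed stretch would have overlapped an annotated untranslated region. All are ce11 reference sequence on the plus strand, and capitals mark matches to 1 of the 5 motifs described with the sequence results.
Left segment, 252 bp upstream of a start of Y50D4C.5, chrV:1003946-1004046: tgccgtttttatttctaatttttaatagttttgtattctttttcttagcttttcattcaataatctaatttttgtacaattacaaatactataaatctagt
Left segment, intron of srt-52, chrV:53443-53543: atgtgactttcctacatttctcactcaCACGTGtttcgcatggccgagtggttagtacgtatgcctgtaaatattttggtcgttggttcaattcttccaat
Middle segment, 74 bp upstream of the start of T07F10.3, chrV:12870069-12870169: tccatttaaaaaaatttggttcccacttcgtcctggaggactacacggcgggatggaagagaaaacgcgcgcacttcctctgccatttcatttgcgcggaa
Middle segment, intergenic, nearest to pos-1, chrV:8415292-8415392: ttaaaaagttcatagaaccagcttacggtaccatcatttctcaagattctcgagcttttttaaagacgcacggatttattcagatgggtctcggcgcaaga
Right segment, 260 bp upstream of the start of C47E8.4, chrV:14685695-14685795: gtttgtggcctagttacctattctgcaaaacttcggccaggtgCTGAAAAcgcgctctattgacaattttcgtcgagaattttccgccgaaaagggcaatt
Right segment, intergenic, nearest to F58D12.3, chrV:14055196-14055296: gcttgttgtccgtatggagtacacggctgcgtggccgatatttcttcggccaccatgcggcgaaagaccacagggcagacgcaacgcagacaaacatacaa
Chemoreceptor-rich stretch, 194 bp upstream of the start of F13A7.14, chrV:16401647-16401747: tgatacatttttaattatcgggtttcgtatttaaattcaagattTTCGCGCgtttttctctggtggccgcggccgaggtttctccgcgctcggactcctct
The GC content of these stretches ran from 19.8% at Y50D4C.5 to 55.4% near F58D12.3.

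The files give no read counts, so the depth of the libraries is unknown. The signal of a peak is a value deposited by the authors on the scale of its own list. Where a site's signals from several lists stand together below, they are compared by rank only. Each replicate also had its own list, and by the same rule 3725 peaks of replicate 1 and 3725 of replicate 2 remained on V. All 3 lists were made relaxed, to hold weak candidates for a later test of reproducibility. The members' −log10 q-values, as deposited, ran from 0.0178 to 2.37. The authors' reproducible set kept 41 of the members, or 1.29%, while on the other 5 nuclear chromosomes it kept 1.56% of the peaks chosen by the same rule.

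The rule removed 125 of the 3306 peaks on V, where the annotation has 173 small RNA starts in all. Of those removed, 21 were in the left segment, 49 in the middle segment and 55 in the right segment. The members had a median signal of 30.3 (range 23.6 to 215.7), and the removed peaks a median of 49.2 with a highest value of 421.4. At the edge of the rule, the nearest member lay 511 bp from a small RNA start and had a signal of 24.2, and the farthest removed peak lay at 500 bp with a signal of 36.9.

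Members were most dense in the middle segment and least dense in the right one. The density was 154 peaks per Mb in the left segment, 166 in the middle and 139 in the right, after the zones around small RNA starts were taken out of the length. The middle segment thus held 36.1% of the members (exact 95% binomial interval 34.4 to 37.8) on 33.3% of the length. All intervals given here cover the counting of peaks only. Peaks of 1 list share 1 pool of worms and are not replicates, so no test was run.

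The replicates put the excess of the middle segment at different sizes. In replicate 1 the middle segment held 34.7% of the peaks (33.1 to 36.2), the same number, 1291, as the left segment, and the right segment held 1143. In replicate 2 the middle segment held 38.3% (36.7 to 39.8), with 1425 peaks against 1195 in the left and 1105 in the right segment. Both replicates thus had their lowest count in the right segment, while a middle segment above the left one was seen in replicate 2 and in the pooled list. Density over the outer segments gave a ratio of 1.13 for V. The same ratio was 1.35 on chromosome I, 1.07 on II, 1.15 on III, 1.17 on IV and 0.898 on X, so V lay within the range of the other autosomes.

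Finer bins were low in parts of every segment, and lowest in the outer ones. In bins of 1 Mb the pooled density had a median of 160 peaks per Mb and reached 192 in the bin that begins at 10 Mb. The lowest densities were 106 in the bin that begins at 16 Mb and 107 in the bin that begins at 3 Mb. The first of these held 89 chemoreceptor gene starts and the second 70, where the median bin held 28.5. The middle segment had its own dip, with 127 members per Mb and 62 chemoreceptor starts in the bin that begins at 7 Mb. Density was not low at the chromosome ends, with 185 members per Mb in the first 1 Mb and 170 in the last. The highest bin by chemoreceptor starts, with 103 of them from 15 Mb on, had 130 members per Mb, yet the bin that begins at 18 Mb, with only 13, had 123.

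**Figure D1:**
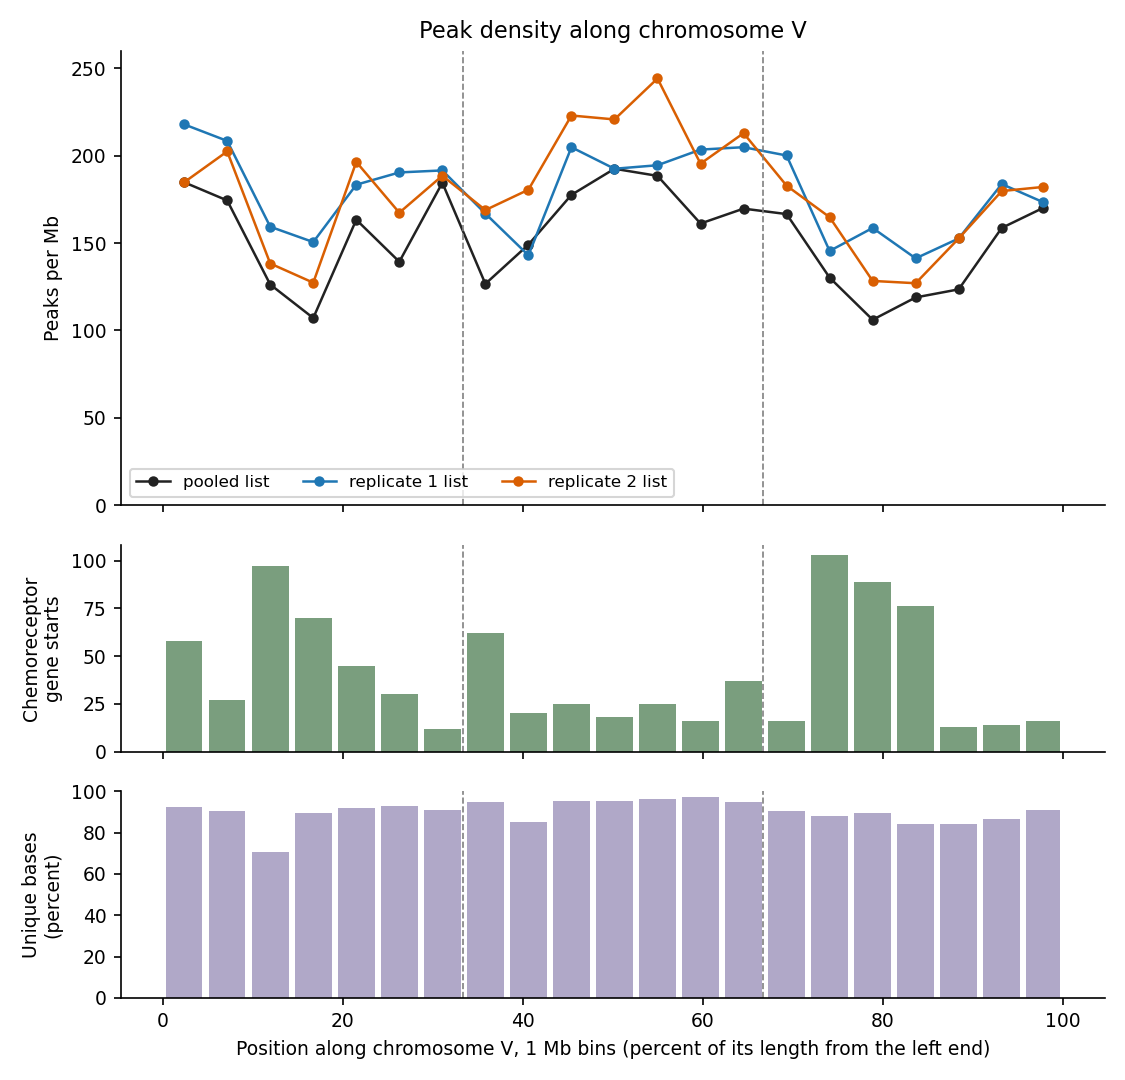
Peaks per Mb in 1 Mb bins along chromosome V (top) for the pooled list and each replicate's list, the number of chemoreceptor gene starts per bin (middle) and the percentage of bases whose 31-base word occurs once in the genome (bottom), by position in percent of the chromosome's length. Dashed lines bound the middle segment, and the pooled density runs from 106 to 192, with its lowest bins in the outer segments and a dip to 127 in the middle one.

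A stretch of 224.2 kb in the left segment held no member at all. It ran from the summit at V:2342152 to the next at V:2566321, where replicate 1 listed 2 peaks and replicate 2 listed none. Of the 49 protein-coding genes that start there, 42 carry a symbol that the annotation lists more than once in the stretch, among them nas-2, mct-2, clec-209, irld-35 and the chemoreceptor genes srt-1 and str-257. A base was called unique where the 31-base word centred on it occurs once in the genome on either strand, and only 3.11% of the bases in this stretch were unique. The next longest stretch without a member, 96.4 kb from V:8805848 to V:8902202 in the middle segment, was 10.1% unique and held the repeated histone genes his-49, his-50, his-51 and his-52. Neither replicate listed a peak there. The next 3 gaps, of 72.5 to 73.8 kb, were 70.0% to 87.9% unique, and each replicate listed peaks in them. The notes with the files name tracks of unique reads, which were not used here, and the sources used here do not say how reads with several matches entered the peak calls.

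Unique bases were unevenly spread, at 88.5% of the left segment, 94.3% of the middle and 87.7% of the right. Of the members, 3095 (97.3%) had their summit on a unique base, while 90.1% of the bases of V were unique. Counted on unique bases only, density was 170 per Mb in the left segment, 174 in the middle and 152 in the right. The ratio of middle over outer density was then 1.08 (interval 1.00 to 1.16) in the pooled list, 1.02 (0.948 to 1.09) in replicate 1 and 1.18 (1.11 to 1.27) in replicate 2. The step between the left and middle segments was thus smaller on unique bases, and the right segment stayed the least dense. In the bin from 2 Mb on, density was 126 per Mb over all bases and 176 per unique Mb, while the bins from 3 Mb and from 16 Mb remained low at 118 and 112, and the bin from 7 Mb had 132.

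The median signal of the middle segment over that of the outer segments was a ratio of 1.02 in the pooled list, 1.01 in replicate 1 and 1.03 in replicate 2. The pooled median was 30.2 in the left segment, 30.7 in the middle and 29.9 in the right. In replicate 1 the medians were 19.7, 19.6 and 19.1 in the same order, and in replicate 2 they were 15.8, 16.1 and 15.5. The interquartile range of the pooled signal was 26.2 to 36.1 in the left segment and 26.8 to 37.2 in the middle.

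Of the 15 members that were the 5 strongest of each segment, 13 lay within 500 bp of a protein-coding start. The exceptions were a member in an intron of srt-52 and an intergenic one near F58D12.3. The highest signal on V was 215.7, at the start of F25H9.6 (V:13468288-13468452, middle segment). It was 98.2 in replicate 1 and 117.1 in replicate 2, each on that list's own scale, and ranked 11 and 4 among all peaks of V there. Next came lrpr-1 (V:5917693-5918122, left segment) with 196.1 in the pooled list, 91.3 in replicate 1 and 92.6 in replicate 2. The member upstream of T07F10.3, whose sequence is shown above, had 173.2, 66.7 and 97.3. In the right segment the strongest member (161.4, 80.9 and 85.8) lay 260 bp upstream of C47E8.4. It also lay inside the annotated hsp-90 gene, which encodes a major cytosolic chaperone, 415 bp upstream of an internal start of that gene. These 4 members ranked within the first 24 of V in both replicates.

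Ranks at the other members among the 5 strongest of a segment were close between replicates at some and far apart at others. The intergenic member in the right segment (V:14055150-14055340), whose sequence is shown above, lay 2594 bp upstream of F58D12.3, with a pooled signal of 156.8 and ranks of 28 in replicate 1 and 11 in replicate 2. At lmtr-3, a part of the lysosomal complex that anchors growth signalling, the pooled signal was 146.9 and the rank 22 in both replicates. C01G10.7 (145.9) ranked 25 in replicate 1 and 18 in replicate 2, and sws-1 (141.5), which acts in recombination, ranked 32 and 21. The member at sec-61.G (152.5), a subunit of the channel through which proteins enter the endoplasmic reticulum, ranked 41 in replicate 1 and 13 in replicate 2. At cav-2 (132.6), a caveolin gene, the rank was 134 in replicate 1 and 15 in replicate 2. W02H5.19 (99.9) in the left segment was the farthest apart, at rank 1258 in replicate 1 and 19 in replicate 2. Y50D4C.5 (113.0), srt-52 (105.8) and B0348.10 (92.7) ranked between 34 and 94 in both. The peak of F28F8.7 (116.8) ranked 38 in replicate 1, and replicate 2 had none within 100 bp. The srt-52 member lay in an intron of that chemoreceptor gene, 2553 bp from the nearest start, near the left end of V.

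**Figure D2:**
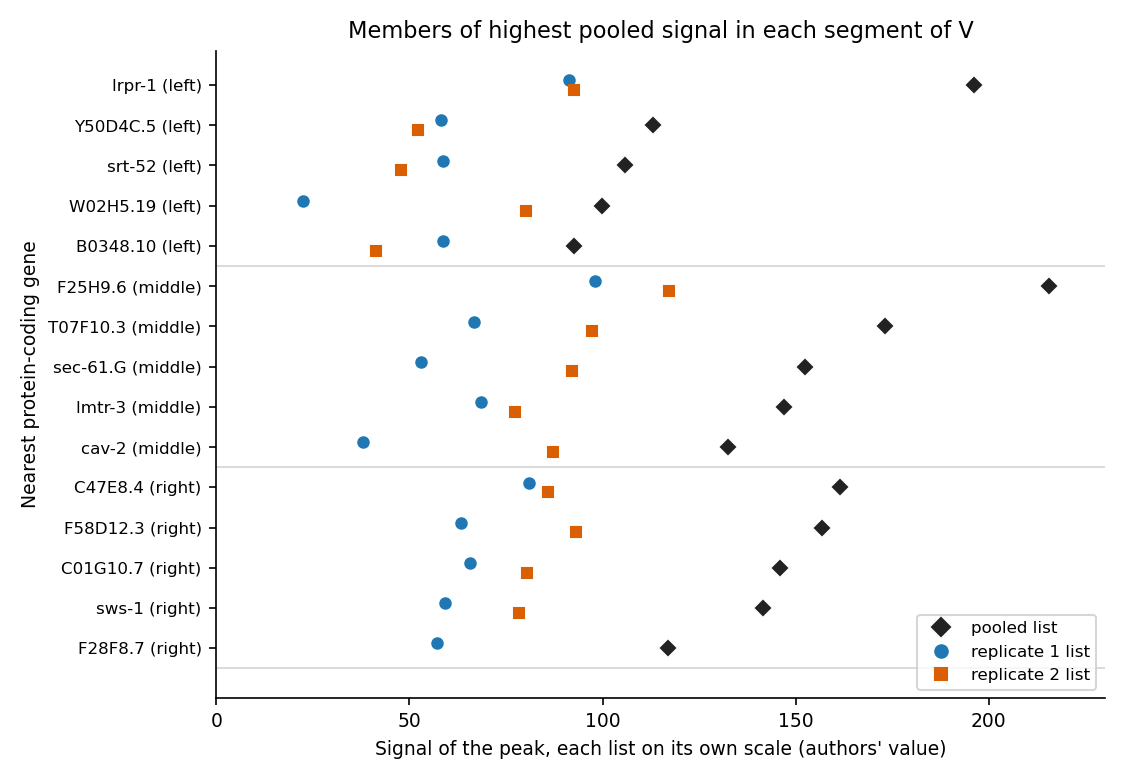
Signal of the 5 members of highest pooled signal in each segment of V (diamonds), with the signal of the matching peak within 100 bp in replicate 1 (circles) and replicate 2 (squares), each list on its own scale. F28F8.7 has no square because replicate 2 listed no peak within 100 bp, and W02H5.19 (22.3 in replicate 1, 80.1 in replicate 2) ranks 1258 and 19 in those lists.

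In every segment a larger share of summits than of bases lay at protein-coding starts. Of all members 1084 (34.1%, interval 32.4 to 35.8) were within 500 bp of such a start, where 27.0% of the bases of V are, a ratio of 1.26. On the other chromosomes the share was 31.9%. The share was 34.4% in the left segment (27.0% of its bases), 36.7% in the middle (28.9%) and 30.6% in the right (25.3%). The ratios of members to bases were 1.27, 1.27 and 1.21, so they differed less among segments than the shares did. The share in the middle minus that in the outer segments was 4.15 percentage points in the pooled list, 7.57 in replicate 1 and 5.47 in replicate 2.

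The other classes were assigned in order to summits outside the start windows. Exons held 719 members (22.6%) on 20.3% of the bases, a ratio of 1.11 (1.04 to 1.19). Introns held 546 (17.2%) on 20.4% of the bases, a ratio of 0.841, and intergenic sequence held 672 (21.1%) on 28.0%, a ratio of 0.755. The intergenic ratio was below 1 in each segment, from 0.724 in the middle to 0.790 in the right. Starts of other RNA genes, without piRNA genes, held 5.03% of the members on 4.24% of the bases. In the right segment this share was 4.99% on 2.92% of the bases, a ratio of 1.71 (1.27 to 2.25), and in the middle segment the ratio was 0.951 (0.748 to 1.19). The start of a worm gene in the annotation is often where a leader RNA is spliced on, so these distances are to annotated starts and not to sites of initiation.

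**Figure D3:**
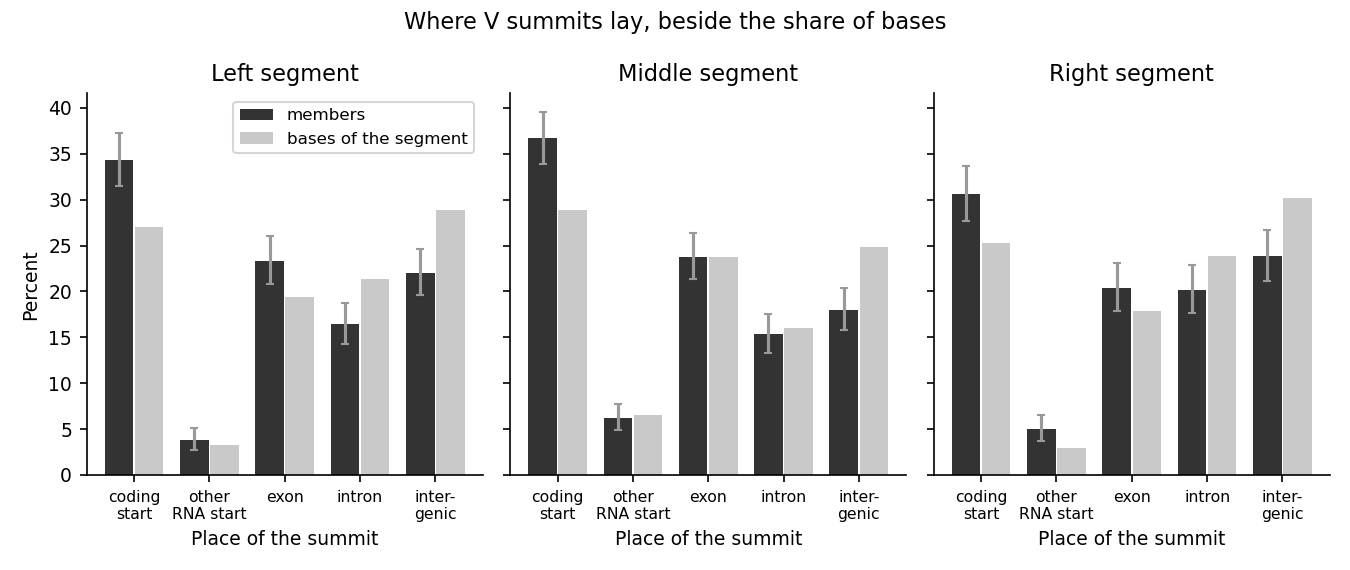
Percentage of members in each place (dark bars, with exact 95% binomial intervals) beside the percentage of bases of the same segment in that place (light bars). Members stand above bases at protein-coding starts and below them in intergenic sequence in all 3 segments.

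The strongest class of members was more often at starts than the weaker classes, with its highest share in the middle segment. Among the 795 members of highest signal (36.5 and above), 42.4% were within 500 bp of a protein-coding start, against 31.4% of the 796 of lowest signal (26.3 and below). The share did not rise step by step, since it was 32.2% in the second strongest class and 30.3% in the next. In the second strongest class the middle segment had 30.8%, the left 34.4% and the right 31.3%. In the strongest class the share was 37.5% in the left segment (31.5 to 43.7), 49.8% in the middle (44.1 to 55.6) and 38.1% in the right (31.8 to 44.7). In the weakest class it was 34.4% (28.8 to 40.4), 30.2% (24.7 to 36.1) and 29.4% (23.9 to 35.4) in the same order. The intervals of these extreme classes thus overlap in both outer segments and not in the middle one. The side of the start also differed. Of the strong members at a start, 56.1% lay upstream of it, against 42.4% of the weak ones. The median position was 33 bp upstream for the strong members and 47 bp downstream for the weak ones.

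A member counted as matched where a replicate's list had a summit within 100 bp. The pooled list was made from the reads of both replicates, so this match is not independent of the replicates. Of the members, 642 (20.2%, interval 18.8 to 21.6) were matched in both replicates, where 0.587% of the bases of V lie that near to both. On the other chromosomes the share was 21.1%. It was 20.1% in the left segment, 20.6% in the middle and 19.8% in the right, so the segments differed by less than their intervals. A peak of replicate 1 was near 54.1% of the members and a peak of replicate 2 near 47.4%. The middle segment was matched more often in replicate 2 (50.2%, against 45.8% in the outer segments), in which it also held more peaks, and less often in replicate 1 (52.7%, against 54.9%).

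Match rose steeply with signal in each segment. Both replicates matched 53.7% of the 795 strongest members, 18.9% of the next 795, 6.92% of those after and 1.26% of the 796 weakest. Among the strongest the share was 56.4% in the left segment, 50.5% in the middle and 55.0% in the right, with intervals that overlap. Of the weakest, 37.1% had a peak in neither replicate's list. Set against each other directly, the replicate lists shared 638 summits within 100 bp, which is 17.1% of the peaks of replicate 1 and 17.1% of those of replicate 2, where 3.60% of the bases lie that near. The direct share in the strongest peaks of each list was 27.6% for replicate 1 and 30.2% for replicate 2. Most members were thus listed by a single replicate or by neither.

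**Figure D4:**
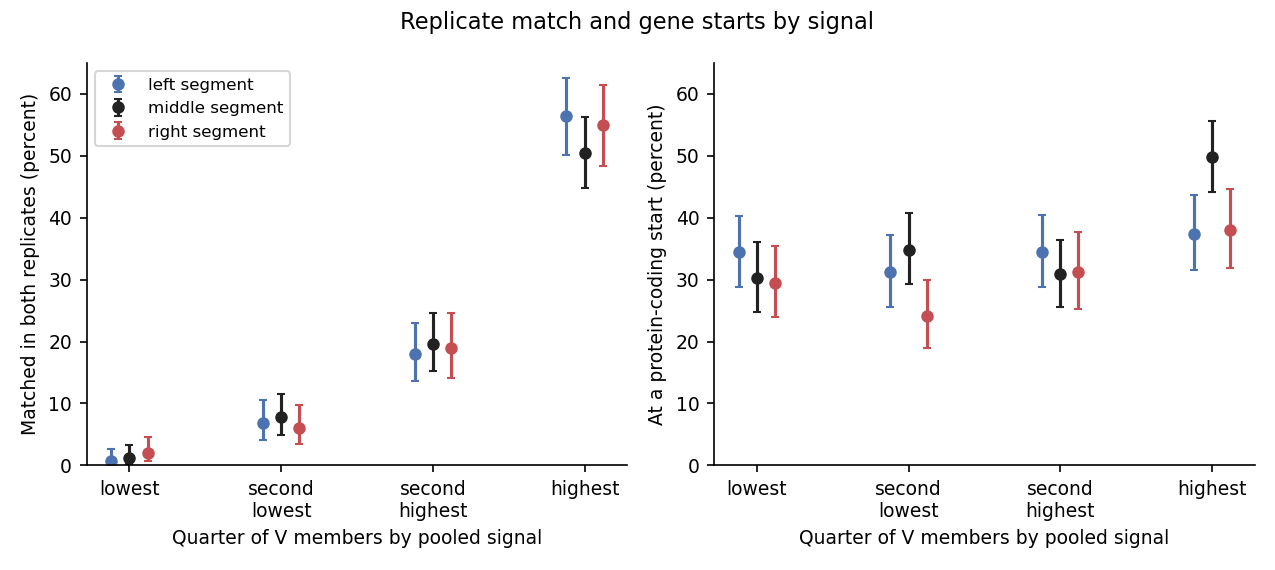
Percentage of members matched within 100 bp in both replicates (left) and within 500 bp of a protein-coding start (right), for the members ranked by pooled signal into 4 classes of equal size, in each segment of V. Bars are exact 95% binomial intervals, and the match runs from 1.26% over V in the weakest class to 53.7% in the strongest.

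The 41 members of the authors' reproducible set had signals of 81.0 to 215.7, and the strongest member outside the set had 80.3. Replicate 1 had a peak within 100 bp of 40 of them, replicate 2 of 40, and both of 39. The left segment held 16, the middle 16 and the right 9. Within 500 bp of a protein-coding start lay 29 of the 41 (70.7%, interval 54.5 to 83.9). That was 15 of 16 in the middle segment, 7 of 16 in the left and 7 of 9 in the right. Of the 29, 82.8% lay upstream of the start, with a median position 134 bp upstream. On V the set was the 41 members of highest pooled signal, so its strength is not a finding, while its place on the chromosome was not used. Its name does not mean that each member agreed between replicates, since 39 of the 41 were matched in both.

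The 15 reproducible members at a start in the middle segment lay near genes of several kinds. Besides those described above they were hda-11, a histone deacetylase gene (122.7), plrg-1, which encodes a splicing factor (122.1), mys-1, for a histone acetyltransferase (88.1), drap-1, for a repressor of transcription (81.1), zipt-9, for a zinc transporter (92.6), pptr-2, for a phosphatase subunit (93.4), sluh-7, a splicing factor gene (100.8), and C50F4.4, C50B6.3 and tag-65, for which no role is given here. At mys-1 the rank was 1672 in replicate 1 and 32 in replicate 2, and at drap-1 it was 26 in replicate 1 and 1110 in replicate 2. The only one of the 16 away from a start was intergenic, 1256 bp from the start of pos-1, a maternal gene for an RNA-binding protein that patterns the embryo. In the left segment several lay away from starts. One was 2170 bp upstream of cmd-1, the calmodulin gene (87.5), one in an exon of crt-1, the calreticulin gene (84.3), and one 1583 bp upstream of unc-70, the β-spectrin gene (83.1), at the start of another RNA gene.

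Chemoreceptor genes were taken by symbol. The symbols began sra, srb, srbc, srd, sre, srg, srh, sri, srj, srm or srn. Others began srr, srsx, srt, sru, srv, srw, srx, srxa, srz or str, and odr-10 was added. Genes with srab symbols were not on the list, so they counted among the other genes throughout. On V there were 869 listed genes, 17.4% of its 4994 protein-coding genes and 67.5% of the 1287 listed genes in the genome. Windows of 100 kb with 10 or more starts of listed genes were called chemoreceptor-rich. There were 32 of these, 12 in the left segment, 5 in the middle and 15 in the right.

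Chemoreceptor-rich windows of the outer segments held fewer members than the other windows there. The density was 122 per Mb in the 27 rich windows and 153 per Mb in the other 114, a ratio of 0.795 (interval 0.704 to 0.896). The ratio was 0.841 (0.755 to 0.936) in replicate 1 and 0.785 (0.700 to 0.879) in replicate 2. It was 0.835 in the left segment, 0.682 in the middle and 0.768 in the right. On unique bases it was 0.826 (0.730 to 0.932) for the outer segments. Rich windows held 29.5 protein-coding genes on average and the other windows 21.3, so they were not poor in genes of all kinds together. These counts include the chemoreceptor genes themselves, 375 in the 27 rich windows and 300 in the other 114. The number of other genes alone was not compared. GC content was 35.8% in rich windows and 35.7% in the others. Single windows overlapped widely, with 7 to 22 members in rich windows (median 12) and 0 to 35 in the others (median 14).

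The rich stretches were not uniform. The longest, 4 windows with 73 chemoreceptor genes in the left segment (V:2700001-3100000), held 52 members, or 130 per Mb. A stretch of 2 windows in the middle segment (V:7300001-7500000), with 30 chemoreceptor genes, had 90 per Mb, while the single window V:8000001-8100000 had 210. In the right segment V:15200001-15500000 had 116 per Mb and V:16100001-16200000 had 70.0. Members within the rich windows of the outer segments had a median signal of 29.6, against 30.2 in the other windows, and 18.5% were matched in both replicates, against 20.2%.

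The strongest members inside rich stretches lay at other genes. They were at F13A7.14 (103.2, V:16401482-16401911), at the ribosomal protein gene rpl-11.1 (88.6), in an exon of C24B9.3, 4316 bp from its start (83.4), at the F-box gene fbxb-72 (74.8) and 1454 bp upstream of pptr-1, a phosphatase subunit gene (70.6). The first 3 belonged to the reproducible set, which had 3 members in rich windows and 38 elsewhere on V. Of all 3181 members, 382 were in rich windows. The set's density in rich windows over that in the other windows of V was 0.439 (interval 0.0867 to 1.38). That interval holds 1, so these few members show no difference.

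The windows around chemoreceptor starts were sparse in members wherever they lay. Bases within 500 bp of a chemoreceptor start and of no other protein-coding start held 84.4 members per Mb, and bases within 500 bp of other protein-coding starts 215 per Mb. The ratio was 0.393 (interval 0.307 to 0.497), with 75 members in 0.889 Mb and 1008 in 4.70 Mb. In replicate 1 the densities were 129 and 234 per Mb, a ratio of 0.553 (0.452 to 0.670), and in replicate 2 they were 101.2 and 252, a ratio of 0.402 (0.320 to 0.498). The pooled ratio was 0.290 in the left segment, 0.516 in the middle and 0.448 in the right, and each replicate's ratio was at or below 0.607 in every segment. For the 1590 members of higher signal the ratio was 0.252 (0.165 to 0.371). On the other chromosomes, where 32 peaks lay in such windows, the pooled ratio was 0.277 (0.189 to 0.391).

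GC content, measured beside that result, was 34.1% in chemoreceptor start windows and 35.6% in the others, and its part in the result was not tested. Unique bases made up 93.1% of the chemoreceptor windows and 93.9% of the others, and on unique bases alone the ratio was 0.405 (0.316 to 0.513). Away from starts, in gene bodies, the density was 100.9 per Mb in chemoreceptor genes and 159 per Mb in other genes, a ratio of 0.636 (0.513 to 0.780), with 0.696 in replicate 1 and 0.721 in replicate 2. By segment the ratio in gene bodies was 0.700 in the left (0.504 to 0.951), 0.377 in the middle (0.199 to 0.650, on 13 members) and 0.752 in the right (0.531 to 1.04). The middle segment gave 0.541 in replicate 1 and 0.743 in replicate 2. In the pooled list the ratio in gene bodies was thus above that at starts in the outer segments and below it in the middle one, and the difference between them was not tested.

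**Figure D5:**
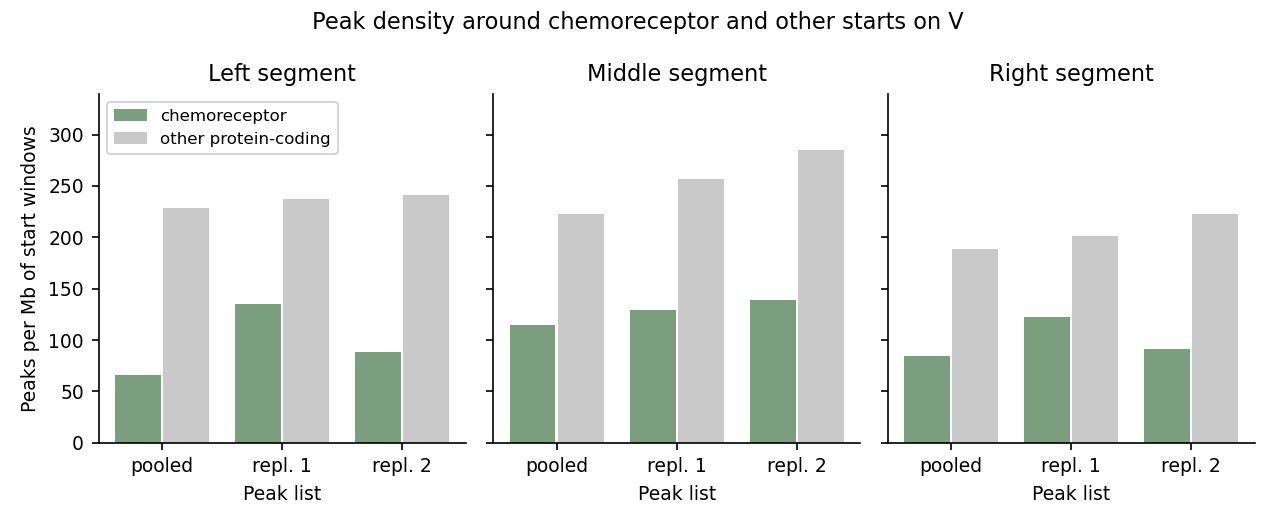
Peaks per Mb of sequence within 500 bp of chemoreceptor starts only (green) and of other protein-coding starts only (grey) in each segment of V, for the pooled list and both replicate lists. Bars carry no error bars, and the green bar is the lower of each pair in all 9 pairs.

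Counted by gene, 71 of the 869 chemoreceptor genes on V (8.17%, interval 6.44 to 10.2) had a member within 500 bp of a start, against 930 of the 4125 other protein-coding genes (22.5%, 21.3 to 23.9). Over all protein-coding genes of V the share was 20%. Members of higher signal (the 1590) were at 27 chemoreceptor genes (3.11%) and at 570 others (13.8%), where the share over all was 12%. In replicate 1 the shares were 13.1% and 24.3%, and in replicate 2 they were 9.67% and 26.4%. A member matched in both replicates was at 11 chemoreceptor genes (1.27%) and at 292 others (7.08%), where 6.07% of all protein-coding genes of V had one. A member of the reproducible set was at 0 chemoreceptor genes and at 40 others, where the share over all was 0.801%. Neighbouring genes can share a member, so these genes are not independent. The chemoreceptor genes with the strongest members at a start were srh-16 in the middle segment (61.4, rank 625 in replicate 1 and 130 in replicate 2), srh-2 in the left segment (54.9, rank 234 and 704) and srx-48 in the right segment (48.4, rank 417 and 1683).

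In the pooled list 5 other large gene families had smaller shares than the 20% over all protein-coding genes of V. The replicate lists differed on this. Of 167 nuclear hormone receptor genes, which encode ligand-activated transcription factors, 29 (17.4%) had a member at a start. The share was 24.4% of the 78 in the left segment, 14.6% of the 41 in the middle and 8.33% of the 48 in the right. Among them nhr-47 (53.8) had the strongest member, which it shared with the chaperone gene dnj-19, ahead of nhr-114 (48.5) and nhr-136 (48.0). The nhr-47 member ranked only 3095 in replicate 1 and 1618 in replicate 2. That of nhr-114 ranked 301 in replicate 1 and had no replicate 2 peak within 100 bp, and that of nhr-136 ranked 632 and 735. C-type lectin genes, many of them linked to immunity, had 9 of 86 (10.5%), and F-box genes, for adaptors that mark proteins for degradation, had 12 of 87 (13.8%). Cytochrome P450 genes, for enzymes that oxidise foreign compounds, had 6 of 41 (14.6%), and UDP-glucuronosyltransferase genes, for enzymes that then conjugate them, 5 of 42 (11.9%). In replicate 1 the share was 22.2% of the nuclear hormone receptors, 10.5% of the lectins, 11.5% of the F-box genes, 17.1% of the P450 genes and 14.3% of the transferases, against 22.3% of all genes. In replicate 2 it was 24.6%, 11.6%, 18.4%, 24.4% and 21.4% in the same order, against 23.5% of all genes, so the receptors and the P450 genes stood above all genes there. None of the genes of these 5 families was at a reproducible member, where only 40 of the 4994 protein-coding genes of V (0.801%) were. The intervals of all but the lectins reached above 20%. The strongest members within 500 bp of a start of the other 4 families were at fbxb-72 (74.8), cyp-32B1 (38.4), clec-215 (33.8) and ugt-12 (28.6). A member of 40.3 lay 491 bp from fbxa-137 but nearer, at 60 bp, to nhr-59.

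Genes for ribosomal proteins and chaperones had larger shares than the 20% over all protein-coding genes, on few genes. Ribosomal protein genes had a member in 5 of 8 cases, with rpl-11.1 (88.6) and rps-16 (85.8) in the reproducible set and rpl-28 at 49.0. The rps-16 member had a replicate 2 peak of 49.4 within 100 bp of its summit and no replicate 1 peak that near, though replicate 1 had a peak of 39.0 within 500 bp of a start of rps-16. Chaperone genes had 7 of 14, with hsp-90 (161.4), dnj-19 (53.8) and the chaperonin subunit gene cct-7 (48.3) first. This cct-7 member ranked 134 in replicate 2 and had no replicate 1 peak within 100 bp. All 5 chaperone genes of the left segment were at a member and 0 of the 6 in the middle, where hsp-16.1 and hsp-16.48 are each listed in 2 copies. In the left segment hsp-16.2 and hsp-16.41 share 1 member (36.5), so these genes are not independent. Proteasome genes had 2 of 5, rpt-2 (34.8) and pas-1 (29.6), with an interval of 5.27 to 85.3% that holds the 20%. Core histone genes had 6 of 27 (22.2%), with his-41 at 58.4 (rank 97 in replicate 2, no replicate 1 peak within 100 bp). The 27 include the repeated histone cluster in the member-free stretch described above, which was 10.1% unique. There his-49 and his-50 are listed 2 times each, and his-51 and his-52 4 times each. The share of the histone genes outside that stretch was not counted. Cuticle collagen genes had 6 of 31 (19.4%), and col-159 and col-160 share 1 member of signal 31.1. Both full lists lay near the share over all genes, the histone list with its repeated cluster counted in. With so few genes the intervals were wide, from 24.5 to 91.5% for ribosomal proteins and from 23.0 to 77.0% for chaperones.

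Of 7 genes for meiotic chromosome proteins on V, 2 had a member within 500 bp, coh-3 and coh-4, a share of 28.6% (interval 3.67 to 71.0) against 20% of all protein-coding genes. Both encode kleisins closely related to each other, which act beside REC-8 in worm meiosis. The coh-4 member (V:4175589-4176018, left segment) had a signal of 48.4 in the pooled list, 23.2 in replicate 1 and 25.7 in replicate 2. The coh-3 member (V:14457042-14457471, right segment) had 45.6, 22.0 and 20.5. Their summits lay 164 bp upstream of coh-4 and 165 bp upstream of coh-3, and the first is nearer to another gene, pid-5, whose start is 78 bp away. In the best ungapped alignment of both peaks 188 of 419 bases (44.9%) were identical, with a longest identical run of 18 bp. The other genes of the list had no member within 500 bp, though the list of replicate 2 had peaks there at scc-3 (13.9) and him-17 (12.8), which made 4 of 7 genes in that replicate against 2 of 7 in replicate 1. Distances to the nearest were 524 bp for him-5, 550 bp for him-17, 1080 bp for syp-1, 1106 bp for syp-2, which like syp-1 builds the synaptonemal complex, and 2998 bp for scc-3, a core cohesin subunit. At him-5 a small RNA start lies 485 bp away, so part of the window around its start could hold no member.

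Some genes with several annotated starts drew several members. In the left segment unc-62, a homeodomain transcription factor gene, had 8 within 500 bp of its starts, and the strongest of them reached only 31.0. In the middle segment gpa-1, a G protein subunit gene expressed in sensory neurons, had 3, with 62.3 at the strongest. That gpa-1 member ranked 91 in replicate 2 and had no replicate 1 peak within 100 bp. In the right segment dcs-1, which encodes an enzyme that clears mRNA caps, had 4, with 67.5 at the strongest, and this member ranked 1632 in replicate 1 and 90 in replicate 2.

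Summits were richer in GC than their surroundings. In the window of the summit and 100 bases to either side, the GC content was 38.4 ± 8.86% (SD over 3181 members), against 36.2% in flanks 1000 bp to either side and 35.4% over V. It was 39.3% in the left segment, 36.6% in the middle and 39.4% in the right, where all bases of the segment had 35.8%, 34.8% and 35.6%. The step from segment to summit was thus smallest in the middle. The strongest 795 members had 40.0% and the weakest 796 had 37.1%. No control library was analysed here, and the part of base composition in the peak calls was not tested.

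The 5 motifs were searched on both strands of the same windows, with windows of that length tiled over V as the background. Summits held the GA repeat GAGAGA in 13.0% of cases, left flanks in 9.56%, right flanks in 11.2% and all windows in 9.30%. The GC box CCGCCC was in 5.47% of summits, against 3.65% and 2.77% of the flanks and 2.86% of windows. The E2F-like motif TTCGCGC was in 58 summits (1.82%), against 0.786% and 0.912% of flanks and 0.957% of windows, and it is the match in capitals at F13A7.14. The E-box CACGTG, in capitals in the srt-52 intron, was in 4.02% of summits, against 3.74% and 3.30% of flanks and 3.25% of windows. That intron stretch also holds the letters GGTTCAA, not in capitals, which are counted under the other observations. The motif TTTTCAG, the usual end of a worm intron, was in 18.1% of summits and in 20.4% and 20.5% of flanks, and it is the match on the other strand at C47E8.4. The GA repeat was in 13.1%, 13.9% and 11.9% of summits in the left, middle and right segments, and in 8.70%, 10.9% and 8.26% of their windows. No motif contains another, and CCGCCC and TTCGCGC are themselves rich in GC. A match is a description of letters and not of a factor bound there.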

How the data were processed

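REC-8::GFP ChIP-seq peaks were analysed from 2 biological replicates of 1 group. The authors deposited peak lists on ce11 and ce10. The deposited signal, the deposited −log10 q-value and the deposited summit offset (another number, in bp) of each peak were read as they stand. The sources used here name neither the aligner nor the peak caller, and per the notes deposited with the files the lists are peaks and background made as input for IDR, the irreproducible discovery rate. Of the ce11 peaks, 0 ended past a WBcel235 chromosome end. Gene starts came from Ensembl release 115, and sequences from the RefSeq genome of the same assembly.

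Members, lists and rules were chosen with earlier results of these data known. A summit took the first class that it met among protein-coding start (500 bp), other RNA start, exon, intron and intergenic. Base shares were computed over every base outside the zones around small RNA starts. Intervals are exact 95% Clopper-Pearson intervals or exact conditional intervals of a rate ratio, and cover counting only. No test was run, as there is no comparison between groups and peaks are not replicates. Words of 31 bases were counted on both strands of the nuclear and mitochondrial genome.

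Named genes were those nearest to the 5 members of highest signal in each segment and in chemoreceptor-rich stretches, up to 3 per gene list (of 12) by signal, and the gene with most members in each segment. The genes of reproducible members, the genes of the member-free stretches, nhr-59 and pid-5 and the distances of the other meiotic genes were added after values were seen. Scripts (Python 3.11.15, numpy 2.4.6, pandas 2.3.3, scipy 1.17.1, matplotlib 3.10.9) were tested on simulated peaks. Alternatives were each replicate's list, higher-signal members, the reproducible set, other windows and match distances, ce10 and unique bases.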

Additional observations from a re-analysis of the deposited data

How the results depend on the processing

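Of 58 repeats of the 7 main values, 44 moved by less than 1 SD between replicates, 14 moved by more, and none of the values that both replicates put on the same side of no difference changed side. The share of members in the middle segment was 39.0% in the reproducible set and 53.7% for the middle 50% of the length. The ratio of median signal was 1.07 in the reproducible set. The excess of protein-coding starts in the middle segment was 37.8 percentage points in the reproducible set and 5.47 to 7.57 with either replicate left out. The difference in match was 8.0 points in the reproducible set. For this value the pooled members were kept, and a match in 1 replicate alone replaced a match in both. The difference was then -2.13 points for replicate 1 and 4.45 for replicate 2, so its direction depended on the replicate. The density ratio of chemoreceptor-rich windows was 0.785 to 0.841 with either replicate left out, 0.711 for the members of higher signal, 0.576 in the reproducible set (3 members), 0.667 with 5 or more starts per window, 0.738 in windows of 50 kb and 0.640 in windows of 200 kb. The ratio at chemoreceptor starts was 0.402 to 0.553 with either replicate left out and 0.252 for the members of higher signal. Restriction to unique bases, the repeats by gene and by start window for replicates and higher signal were chosen after seeing the data. The cause of these moves was not tested. Weak peaks and unknown depth limit every count of members. No paired analysis was possible because there is 1 group of samples and no test.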

Other observations

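Other classes of annotated genes on V were counted at members without a place in the comparisons above. For scale, 13.8% of the bases of V lie within 500 bp of a member's summit, and 20% of the protein-coding genes had a start there. Of 28 microRNA genes, 10 (35.7%, exact 95% binomial interval 18.6 to 55.9) had a member within 500 bp, near 8 members in all, so neighbouring genes shared members. Unclassed ncRNA genes had 266 of 1524 (17.5%, 15.6 to 19.5) and pseudogenes 79 of 867 (9.11%, 7.28 to 11.2). The intervals of the other classes held the 13.8%, with 6 of 32 antisense RNA genes (7.21 to 36.4), 5 of 35 lincRNA genes (4.81 to 30.3), 25 of 202 piRNA genes (8.17 to 17.7) and 1 of 15 ribosomal RNA genes (0.169 to 31.9). Of these pseudogenes 198 lie in the left segment, 145 in the middle and 524 in the right, where 49 of the 80 members near a pseudogene lay.

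The B box core GGTTCGA, an element inside tRNA genes, was counted after the values were seen, to see what the removal near annotated small RNA genes had left. It was in 64 members (2.01%), in 1.98% of either flank and in 1.60% of all windows of that length on V. Of these 64 members 10 were in the left segment, 16 in the middle and 38 in the right, and 0 were in the reproducible set. The share of windows with these letters was not counted by segment, so these counts do not show a difference between segments. The variant GGTTCAA was in 78 members (2.45%), below its 2.83% of all windows, and in 1 member of the reproducible set. That member is the one in the srt-52 intron, whose printed stretch holds these letters beside the E-box. The part of either in its signal was not tested.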
